A study of Homo sapiens with 2 samples.

Results

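Heat shock proteins and their DNAJ co-chaperones were taken from RNA sequencing of 2 THP1 libraries, of which the labels give 1 as exposed to bort over 24 h and 1 as untreated. Bort is bortezomib, a proteasome inhibitor. THP1 is an established human leukaemia cell line described as monocytic. Every row of the gene table whose name starts with HSPA, HSPB, HSP90, HSPD1, HSPE1, HSPH1 or DNAJ was a member, except the endoplasmic reticulum (ER) stress genes HSPA5, HSP90B1 and DNAJB9, the binding proteins HSPBP1 and HSPBAP1, and hyphenated readthrough names. This gave 55 members among 10987 genes. RefSeq has 68 protein-coding names under the same rule, of which 54 had a row; HSPB11 goes under another name there.

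Each condition was 1 library, so no difference below has a replicate check, and no p-value was computed. Levels are FPKM (mapped fragments scaled to transcript length and to the library), and the depth of the libraries is unknown. A fold change is the difference of log2(FPKM + 1), bort minus untreated, which understates the change of genes near or under 1 FPKM. Genes past 2-fold on this scale are called higher or lower.

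The labelled cell type was checked against marker genes first. Of 20 monocytic and myeloid markers, 7 had a row, and they summed to 24.9 FPKM untreated and 66.8 FPKM with bort. LYZ was the most abundant of them, at 7.61 and 28.7 FPKM. CD14, CSF1R and MPO, which define these cells, were among the 13 without a row. Of 20 erythroid markers, 18 had a row and summed to 5158 FPKM in the untreated and 4492 FPKM in the bort library, with HBG1, a fetal globin, at 1487 and 1536 FPKM. The erythroid regulator GATA1 was at 161.3 and 48.7 FPKM, and KLF1 at 147.1 and 17.4 FPKM. The erythroid markers differed in both directions. TAL1 had 11.1 and 22.0 FPKM, HBE1 424.7 and 710 FPKM and RHAG 221.8 and 363 FPKM, while HBZ had 584 and 158.5 FPKM. The markers therefore go against the label in both libraries, and the samples are called the library labelled bort and the library labelled untreated (bort library and untreated library for short). The part of these marker differences in the results below was not tested, and in bulk RNA fewer cells of a type and less RNA per cell cannot be told apart.

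Heat shock proteins bind unfolded or partly folded proteins. HSP70 proteins hold and release substrates in a cycle driven by ATP, J proteins (DNAJ) bring substrates and start ATP hydrolysis, HSP110 proteins exchange the nucleotide, HSP90 proteins finish the folding of kinases and receptors, and small heat shock proteins hold unfolding proteins without ATP. In the cytosol, unfolded proteins release the transcription factor HSF1, which binds inverted repeats of the unit GAA, called heat shock elements, in front of heat shock genes. Proteasome inhibitors are known inducers of this response.

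Past 2-fold, 7 of the 55 members (12.7%) were higher in the bort library, beside 8.08% of all genes. These were HSPB8, DNAJB4, HSPA1A, HSPA1B, HSPA13, DNAJB1 and DNAJC3. Another 4 members (7.27%) were lower, beside 10.2% of all genes, namely HSPB3, DNAJA3, DNAJC11 and DNAJC9. The remaining 44 lay within 2-fold. With each library scaled by its upper quartile or by its total without the 20 most abundant genes, 10 members were higher and 2 lower in place of 7 and 4. The same 2 scalings gave 1092 higher and 934 lower, and 1100 higher and 931 lower, of all genes, in place of 888 and 1125. At 1.5-fold, 18 members (32.7%) were higher, beside 20.8% of all genes, and 6 (10.9%) were lower, beside 21.6%. At 4-fold, 2 members (3.64%), HSPB8 and DNAJB4, were higher, beside 0.837% of all genes, and 0 were lower, beside 1.23%. HSPB8, counted as higher at each threshold, and DNAJB5 and DNAJC28, counted at 1.5-fold, could be listed only by being higher in the bort library. Their untreated levels were under 0.501 FPKM, which a gene had to reach in either library to be listed.

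The median fold change of the members was 0.19 log2, beside 0.0049 for all genes. Of the 55, 35 (63.6%) were above 0, beside 50.3% of all genes. The table holds a gene only where the higher of its levels reached 0.501 FPKM. In the untreated library 4 members lay below that level, namely HSPB8, DNAJB5, DNAJC27 and DNAJC28. These could be listed only by being higher in the bort library. Over the 45 members that reached 1 FPKM in each library, a median of 0.054 log2 was left. The summed level of all members was 4659 FPKM untreated and 6403 FPKM with bort, or 2.22% and 2.89% of the library total. HSPA1A and HSPA1B made up most of that difference, since the other 53 members summed to 4103 and 4550 FPKM.

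**Figure D1:**
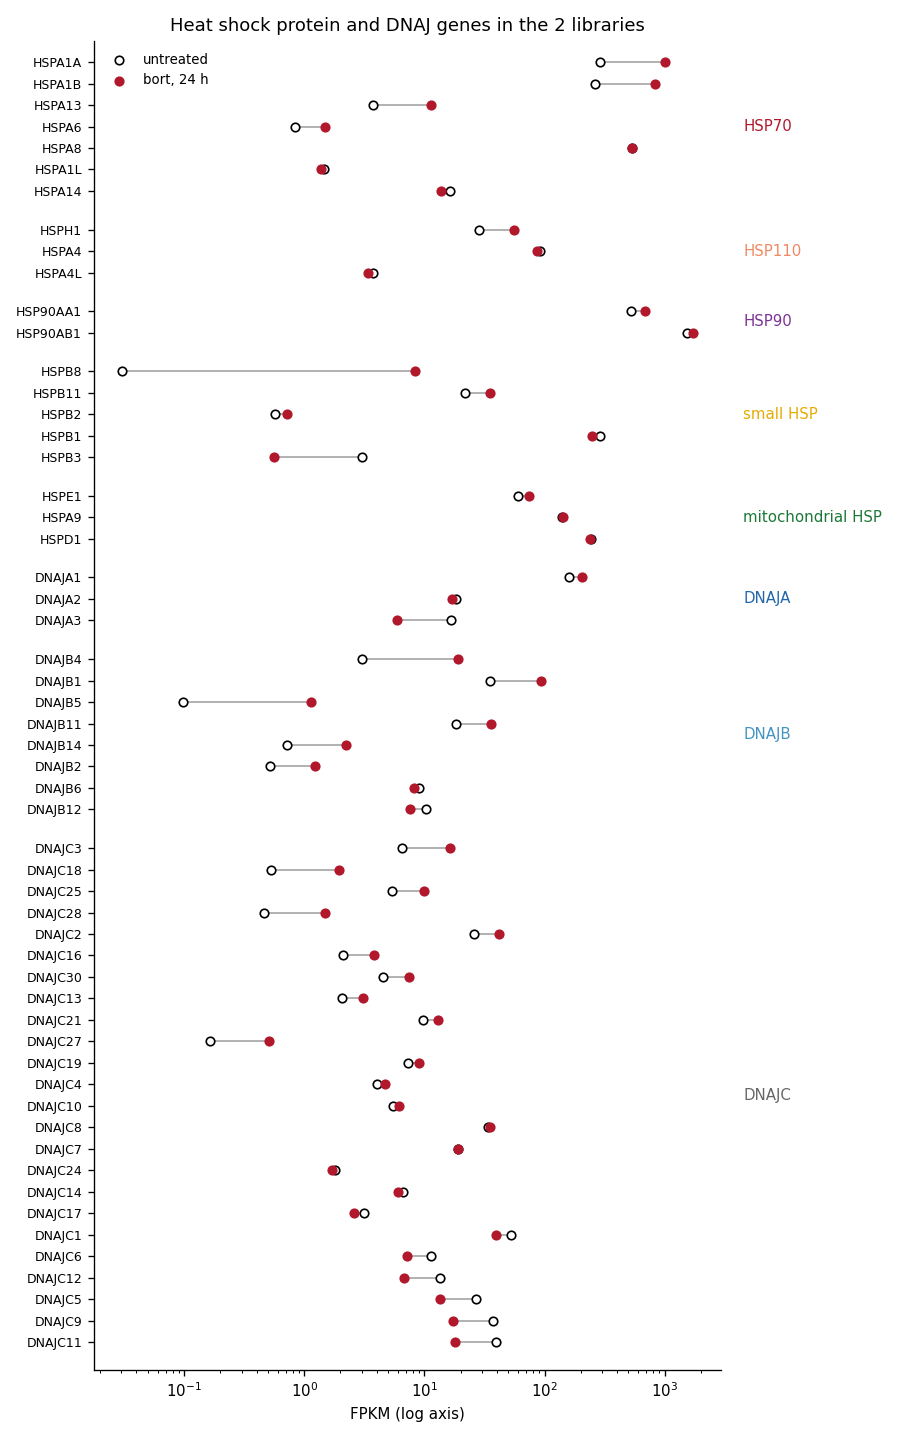
Level of each of the 55 members in FPKM (log axis), grouped by class, with open circles for the untreated and filled circles for the bort library, 1 library each. HSPA1A and HSPA1B lie between 265.3 and 290.1 FPKM untreated and reach 838 and 1015 FPKM, while HSPA8 has 533 and 540 FPKM.

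**Figure D2:**
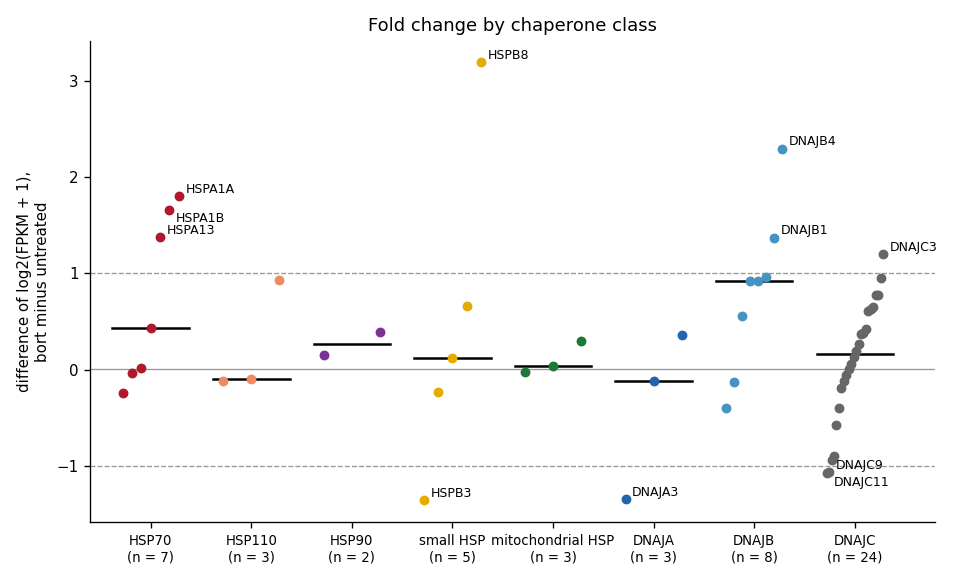
Difference of log2(FPKM + 1), bort minus untreated, for each member (points, spread sideways by rank), with class medians as black bars, the median of all genes as a grey line and 2-fold as dashed lines. The DNAJB class has the highest median, 0.92, and the 11 members past 2-fold are named.

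Among the HSP70 genes, the stress-inducible pair was higher. HSPA1A had 290.1 FPKM in the untreated and 1015 FPKM in the bort library, and HSPA1B had 265.3 and 838 FPKM, which are ratios of 3.50 and 3.16. HSPA1A moved from rank 77 to rank 17 among all genes by level. The genes are near-identical copies, and 69.3% of the 75-base windows of HSPA1A transcripts also occur in other genes, mainly HSPA1B, so the division of fragments between them is uncertain. Their sum does not depend on that division, unless shared fragments were dropped or counted for both genes, which is unknown here. The sum went from 555 to 1853 FPKM, a ratio of 3.34. Their promoters are alike as well, with 93.6% identity over an alignment of 251 columns.

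The constitutive HSP70 of the cytosol, HSPA8, had 533 FPKM in the untreated and 540 FPKM in the bort library, a fold change of 0.019 log2. In the untreated library, HSPA8 was thus at about the level of HSPA1A and HSPA1B together, and in the bort library it was below their sum of 1853 FPKM. HSPA13, an HSP70 of the microsomal compartment, was higher, at 3.75 and 11.3 FPKM. With the trend of fold change on transcript GC content removed, its fold change went from 1.37 to 0.76 log2, under 2-fold.

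HSPA6, which is strictly stress-inducible, was low in both libraries, at 0.837 FPKM untreated and 1.49 FPKM in the bort library. It shares 35.0% of its windows with other genes, mainly the pseudogene HSPA7. HSPA1L, a form known from testis, had 1.45 and 1.39 FPKM, and HSPA14, which works at the ribosome, had 16.2 and 13.6 FPKM. The 7 HSP70 genes had a median of 0.44 log2, and without HSPA1A and HSPA1B it was 0.019. The median of the 7 was 0.76 log2 with a pseudocount of 0.1 FPKM and with the GC trend removed, 0.83 log2 with no pseudocount, and 0.70 log2 over those at 1 FPKM or above in each library.

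HSF1 acts through promoters, so the 250 bases before the start site are shown for the 3 members that rose most, for the 1 that fell most, and for HSPA8 as an abundant gene with nearly equal levels, chosen after its values were seen. Sequences are from RefSeq on GRCh38.p14, 5' to 3' on the strand of the gene, with 2-unit heat shock elements (GAANNTTC or TTCNNGAA, which read the same on both strands) in capitals. The windows are HSPB8 at chr12:119178681-119178930 (+), DNAJB4 at chr1:78004689-78004938 (+), HSPA1A at chr6:31815293-31815542 (+), HSPB3 at chr5:54455449-54455698 (+) and HSPA8 at chr11:123062137-123062386 (-). DNAJB4 has 2 start sites, of which the one with a match is shown; the window of the other has no match.
HSPB8: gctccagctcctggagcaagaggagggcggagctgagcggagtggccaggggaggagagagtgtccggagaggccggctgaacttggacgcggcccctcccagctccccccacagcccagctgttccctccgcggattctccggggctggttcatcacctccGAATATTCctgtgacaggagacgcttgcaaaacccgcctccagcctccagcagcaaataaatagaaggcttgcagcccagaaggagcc
DNAJB4: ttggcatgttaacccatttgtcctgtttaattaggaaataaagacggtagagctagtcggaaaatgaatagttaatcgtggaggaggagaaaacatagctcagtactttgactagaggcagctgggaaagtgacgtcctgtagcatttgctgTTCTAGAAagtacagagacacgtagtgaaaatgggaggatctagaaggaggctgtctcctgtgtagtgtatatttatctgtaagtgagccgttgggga
HSPA1A: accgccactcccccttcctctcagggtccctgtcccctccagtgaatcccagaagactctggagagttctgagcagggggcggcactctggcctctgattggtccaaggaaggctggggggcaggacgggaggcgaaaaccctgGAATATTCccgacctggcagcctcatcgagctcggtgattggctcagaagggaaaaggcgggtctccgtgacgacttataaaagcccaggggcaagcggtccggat
HSPB3: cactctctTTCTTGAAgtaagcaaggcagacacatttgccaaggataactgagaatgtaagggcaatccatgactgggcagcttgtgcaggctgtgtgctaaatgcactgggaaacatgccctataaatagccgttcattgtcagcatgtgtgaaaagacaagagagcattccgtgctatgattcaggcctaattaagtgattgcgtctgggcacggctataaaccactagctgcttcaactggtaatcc
HSPA8: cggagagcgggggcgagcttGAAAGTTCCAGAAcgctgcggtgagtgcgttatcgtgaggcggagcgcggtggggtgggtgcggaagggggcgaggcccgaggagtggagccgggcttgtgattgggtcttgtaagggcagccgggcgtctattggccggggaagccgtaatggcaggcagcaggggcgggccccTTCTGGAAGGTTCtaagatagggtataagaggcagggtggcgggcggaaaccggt
The printed match of HSPB8 begins 88 bases, that of DNAJB4 98 bases and that of HSPA1A 106 bases before the start site. HSPB8 has a further match at base 5 of the transcript, outside the printed window. The match of HSPB3 lies farther away, at 242 bases. HSPA8 has 4 overlapping or neighbouring matches, which form 2 3-unit elements (GAANNTTCNNGAA or TTCNNGAANNTTC).

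A window of 300 bases, 250 before and 50 after each start, was matched for 50 members, and DNAJC1, DNAJC24, HSPA14, HSPB2 and HSPB11 had no entry. A 2-unit match was in at least 1 window of 18 of the 50 (36.0%), against 13.2% of the 8544 genes of the table with a window. By window, 28.8% of those of members and 13.5% of all 35116 windows had one. Past 2-fold, 5 of the 18 members with a match were higher (HSPB8, DNAJB4, HSPA1A, HSPA1B and DNAJB1) and 1, HSPB3, was lower, and 2 of the 32 without a match were higher (HSPA13 and DNAJC3) and 3 lower (DNAJA3, DNAJC9 and DNAJC11). Of all genes with a match, 8.71% were higher and 7.82% lower, and of those without, 7.93% and 9.85%. HSPB8 could be listed only by being higher in the bort library, as its untreated level was under the minimum of the table. The windows of HSPA1A and HSPA1L overlap on opposite strands and hold the same match, which counts for both. The medians ran the other way, at 0.092 log2 with and 0.33 log2 without a match.

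The 3-unit form was in 7 members (14.0%), against 0.468% of genes. By window, 10.6% of those of members and 0.490% of all windows had it. The 7 members were HSPA6, HSPA8, HSP90AA1, HSP90AB1, HSPD1, DNAJA1 and DNAJB6. None of the 7 passed 2-fold, with fold changes from -0.13 to 0.44 log2, and of the 40 genes of the table with this form 7.5% were higher and 5.0% lower. A match is a run of letters and not a measured binding site. Only exact GAA and TTC units were searched, so elements with imperfect units were not counted for any gene.

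**Figure D3:**
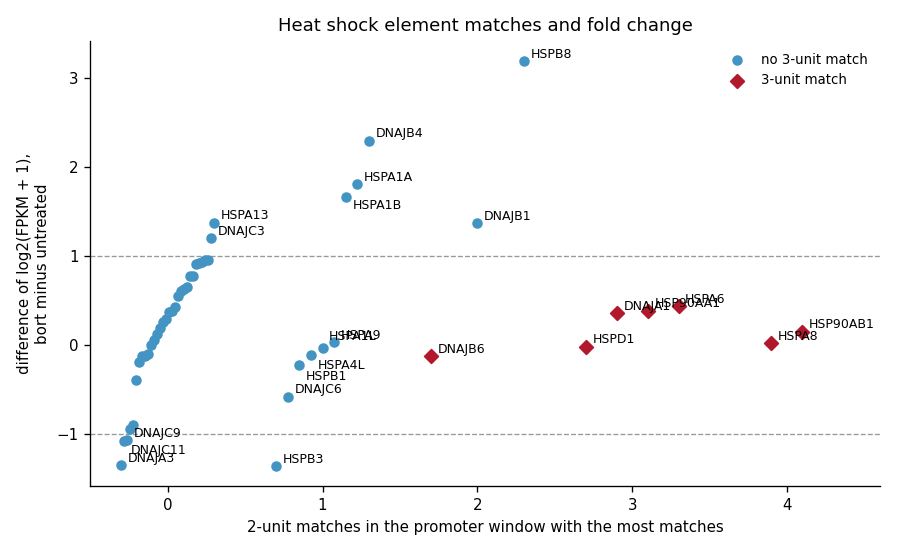
Number of 2-unit heat shock element matches in the promoter window with the most matches, against the difference of log2(FPKM + 1), for the 50 members with a window (points are spread sideways). Diamonds mark the 7 members with a 3-unit match, all between -0.13 and 0.44 log2, and dashed lines mark 2-fold.

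The HSP90 genes were both within 2-fold, and HSP90AB1 was the most abundant member in each library. HSP90AB1, the constitutive form, had 1542 FPKM in the untreated and 1713 FPKM in the bort library, and HSP90AA1, the inducible form, had 526 and 688 FPKM. Their fold changes were 0.15 and 0.39 log2. HSP90AA1, HSP90AB1 and HSPA8 together held 1.24% of the untreated and 1.33% of the bort library total.

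Of the HSP110 genes, HSPH1 had 28.7 and 55.7 FPKM, a fold change of 0.93 log2, just short of 2-fold. With either of the scalings by upper quartile or by the total without the 20 most abundant genes it passed 2-fold, and it was at 0.88 log2 on the TPM scale and 0.46 log2 with the GC trend removed. HSPA4 had 92.3 and 86.3 FPKM, and HSPA4L had 3.73 and 3.37 FPKM. The median of the 3 was -0.10 log2. It turned to 0.013 and 0.016 log2 with those scalings, and was -0.17 log2 on the TPM scale and -0.42 log2 with the GC trend removed. The median thus has no direction that holds over these settings.

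The small heat shock proteins held the largest rise and the largest fall of all members. HSPB8, which works with BAG3 in the removal of misfolded proteins, had 0.0305 FPKM in the untreated and 8.39 FPKM in the bort library. Its fold change of 3.19 log2 was exceeded by 11 genes of the table. The size rests on the pseudocount, since the untreated level was near 0, and was 6.02 log2 with 0.1 FPKM and 8.10 log2 with no pseudocount. HSPB3, a form known from muscle, had 3.01 and 0.564 FPKM, a fold change of -1.36 log2.

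HSPB1, the abundant small heat shock protein, had 291.8 and 249.1 FPKM. Its fold change of -0.23 log2 turned to 0.36 log2 with the GC trend removed, and its transcripts have a GC content of 63.6%. HSPB11, which also belongs to the intraflagellar transport machinery, had 21.8 and 35.2 FPKM. HSPB2 was low, at 0.569 and 0.712 FPKM, and shares 51.3% of its windows with other genes, mainly a readthrough gene. Summed over the 5 genes, the level was 317 and 294.0 FPKM, so the low genes past 2-fold weigh little in it.

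The mitochondrial heat shock proteins HSPD1, HSPE1 and HSPA9 differed little. HSPD1, the folding chamber, had 244.6 and 241.3 FPKM, its lid HSPE1 had 60.1 and 73.9 FPKM, and HSPA9, the mitochondrial HSP70, had 140.3 and 143.5 FPKM. The median was 0.033 log2 and turned to -0.044 log2 on the TPM scale (each library summing to 1000000) and to -0.16 log2 with the GC trend removed. No member of this class passed 2-fold. Of the genes outside the class that are described below as mitochondrial, DNAJA3, DNAJC11 and TRAP1 were lower and GRPEL2 was higher past 2-fold.

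**Figure D4:**
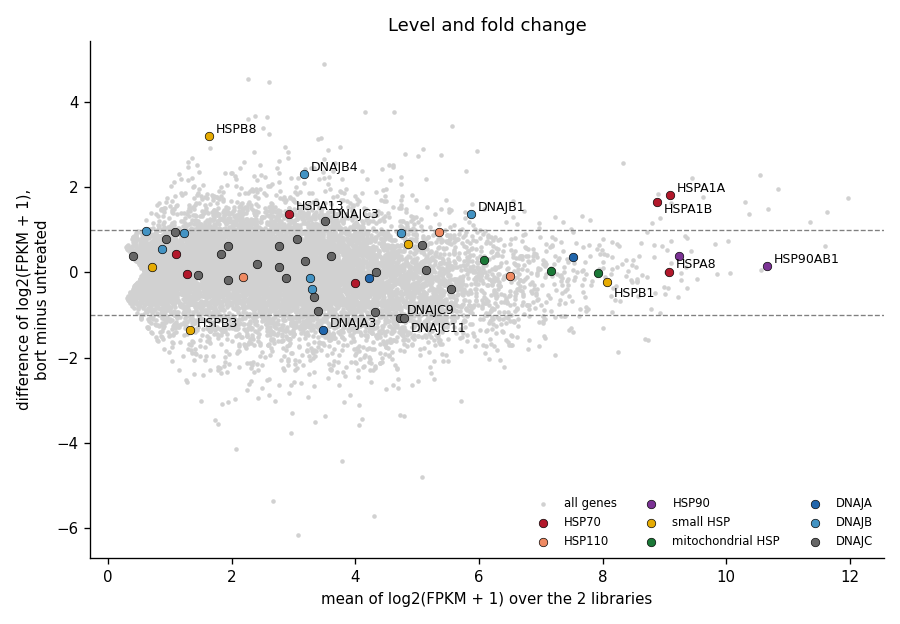
Mean of log2(FPKM + 1) over the 2 libraries against the difference of log2(FPKM + 1), bort minus untreated, with all 10987 genes in grey and members coloured by class. HSPA1A and HSPA1B stand at high level and above 2-fold (dashed), while HSP90AB1 and HSPA8 lie near 0 at high level.

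J proteins are grouped by their domains into DNAJA, DNAJB and DNAJC. Among the 3 DNAJA genes, DNAJA1, the abundant cytosolic form, had 161.1 and 206.6 FPKM, and DNAJA2 had 18.5 and 16.9 FPKM. DNAJA3, the mitochondrial form, was lower, at 16.7 FPKM in the untreated and 5.96 FPKM in the bort library. The class median was -0.12 log2, and ran from -0.015 log2 with the total without the 20 most abundant genes to -0.45 log2 with the GC trend removed.

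The DNAJB class had the highest median, 0.92 log2, and 6 of its 8 genes (75%) were above 0, beside 50.3% of all genes. Of these, DNAJB5 could be listed only by being higher in the bort library, as its untreated level was under the minimum of the table. DNAJB4 had 3.05 FPKM in the untreated and 18.9 FPKM in the bort library, a ratio of 6.19, and 54 genes of the table had a larger fold change. DNAJB1, the main heat-inducible partner of cytosolic HSP70, had 35.4 and 93.1 FPKM, a ratio of 2.63. DNAJB4 and DNAJB1 were the only DNAJB genes past 2-fold.

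DNAJB5, DNAJB11 and DNAJB14 lay just short of 2-fold, at 0.96, 0.92 and 0.91 log2. DNAJB11, a partner of HSPA5 in the ER, had 18.4 and 35.8 FPKM, and passed 2-fold, at 1.03 log2, with the upper quartile scaling and with the total without the 20 most abundant genes. DNAJB14 had 0.712 and 2.23 FPKM and passed 2-fold with each smaller pseudocount and on the TPM scale. DNAJB5 had 0.0978 and 1.13 FPKM, and passed 2-fold with the same settings, at 2.64 log2 with 0.1 FPKM. With the GC trend removed, DNAJB5 passed 2-fold at 1.23 log2, while DNAJB11 was at 0.64 and DNAJB14 at 0.22 log2. DNAJB2 had 0.521 and 1.23 FPKM, and passed 2-fold with a pseudocount of 0.1 FPKM and with none. DNAJB6, which keeps polyglutamine proteins from aggregating, had 9.02 and 8.19 FPKM, and DNAJB12, an ER membrane protein, had 10.3 and 7.60 FPKM.

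The 24 DNAJC genes were split, with 15 above (62.5%, beside 50.3% of all genes) and 9 below 0. Among those above, DNAJC27 and DNAJC28 could be listed only by being higher in the bort library, for the same reason as DNAJB5. The median of the 24 was 0.16 log2. It was 0.054 log2 over those at 1 FPKM or above in each library and 0.0084 log2 with the GC trend removed. DNAJC3, an ER co-chaperone of HSPA5, was higher, at 6.56 and 16.4 FPKM, although its fold change fell short of 2-fold with the GC trend removed, at 0.78 log2. DNAJC18 had 0.532 and 1.96 FPKM, just short of 2-fold at 0.95 log2, and passed it with each smaller pseudocount and with 3 of the 4 scalings. With the GC trend removed DNAJC18 was at 0.82 log2. DNAJC25 had 5.39 and 9.96 FPKM, with 10.5% of its windows shared with other genes, mainly a readthrough gene. DNAJC2, the partner of HSPA14 at the ribosome, had 41.5 FPKM in the bort library, 1.59 times its untreated level.

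On the other side, DNAJC11, a protein of the mitochondrial membranes, had 39.1 FPKM in the untreated and 18.0 FPKM in the bort library. DNAJC9, a histone chaperone, had 37.1 and 17.2 FPKM. Both were lower by just over 2-fold, at -1.07 and -1.06 log2, and were within 2-fold with the upper quartile scaling and with the total without the 20 most abundant genes. DNAJC11 was also within 2-fold with the GC trend removed, at -0.86 log2. Transcripts of genes on the opposite strand share 24.8% of the windows of DNAJC11 and 19.2% of those of DNAJC9, so without strand their fragments cannot be told apart.

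DNAJC5, a synaptic vesicle protein, had 26.7 and 13.5 FPKM, just within 2-fold at -0.94 log2 and past it on the TPM scale, at -1.05 log2. With the GC trend removed it was at -0.59 log2. With the upper quartile scaling and with the total without the 20 most abundant genes it was at -0.83 log2. The most abundant DNAJC genes by mean level were DNAJC1 at 52.6 and 39.6 FPKM, DNAJC8, a splicing factor, at 33.9 and 35.2 FPKM, and DNAJC2.

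Of 46 other genes of the chaperone pathways, 45 had a row, with 7 higher (15.6%, beside 8.08% of all genes) and 6 lower (13.3%, beside 10.2%) past 2-fold and a median of 0.011 log2. Among the regulators, HSF1 had 14.6 and 11.8 FPKM and HSF2 had 6.19 and 12.2 FPKM, neither past 2-fold. With the GC trend removed, HSF1 turned from -0.28 to 0.32 log2 and HSF2 went from 0.88 to 0.48 log2. BAG3, the partner of HSPB8, had 20.2 FPKM in the untreated and 42.7 FPKM in the bort library, a difference that was within 2-fold on the TPM scale. CRYAB, a further small heat shock protein, had 1.33 and 5.11 FPKM.

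Of the 3 ER genes left out of the members, DNAJB9 and HSPA5 were higher. DNAJB9, with the largest rise of the list, had 2.94 and 17.1 FPKM, and HSPA5, the HSP70 of the ER, had 311.9 and 965 FPKM. HSP90B1 had 303 and 585 FPKM, just short of 2-fold. SIL1, a nucleotide exchange factor of HSPA5, had 9.04 and 4.09 FPKM, just short of 2-fold at -0.98 log2, although its untreated level was 2.21 times that with bort. HYOU1, another, had 54.5 and 51.0 FPKM. The mitochondrial nucleotide exchange factor GRPEL2 had 2.03 and 8.16 FPKM, and HSCB, a J protein of iron-sulfur cluster assembly, had 3.96 and 11.6 FPKM.

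TRAP1, the mitochondrial HSP90, fell most, from 98.7 to 26.6 FPKM, a fold change of -1.85 log2. FKBP4, which binds HSP90 in receptor complexes, had 67.7 and 25.1 FPKM, SGTA, which guards membrane proteins in the cytosol, had 86.9 and 31.6 FPKM, and the ubiquitin ligase STUB1 had 38.7 and 14.4 FPKM. HSPBP1, which releases nucleotide from HSP70, had 46.7 and 18.5 FPKM, and GAK, an uncoating partner of HSPA8, had 8.31 and 3.53 FPKM. With the GC trend removed, STUB1, HSPBP1 and GAK were within 2-fold, and GAK was also within it with the upper quartile scaling and with the total without the 20 most abundant genes.

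Fold change went down as transcript GC content went up across all genes of the table, with a Spearman correlation of -0.49 over 10907 genes, which are not independent replicates. Over the 55 members it was -0.19. HSPA1A and HSPA1B have a GC content of 59.3% and 58.7%, and their fold changes were larger with the trend removed, at 2.20 and 2.03 log2. DNAJB4, with 38.8%, went from 2.29 to 1.79 log2. The median of the members went from 0.19 to 0.091 log2, and whether GC content acts on these values was not tested.

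**Figure D5:**
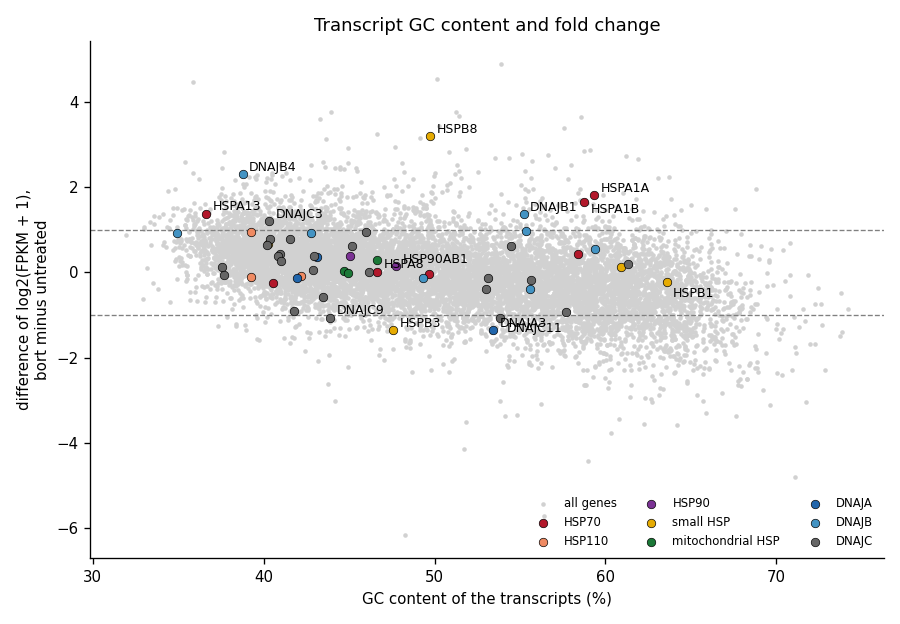
GC content of the transcripts in percent against the difference of log2(FPKM + 1), bort minus untreated, with 10907 genes in grey and members coloured by class. The grey points slope down (Spearman correlation -0.49), and HSPA1A and HSPA1B lie above them at 59.3% and 58.7% GC.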

How the data were processed

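RNA sequencing of 2 libraries, 1 treated and 1 untreated, was analysed. Per the methods of the study, the authors mapped trimmed reads with HISAT2 and assembled transcripts with StringTie. The deposited unit is FPKM, as a header line states although the table is titled as raw counts, and the tool that computed it is not given in the sources used here. The submitters' processing notes name GRCh37. The methods and the labels name different library kits, so whether the libraries kept strand is unclear. The depth is unknown.

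Fold changes were differences of log2(FPKM + 1) over all 10987 genes, with a threshold of 2-fold. Transcript GC content (10907 genes matched) and windows of 75 bases shared with other genes came from GENCODE 29 transcripts, and promoters from RefSeq on GRCh38.p14. The GC trend was removed by lowess with a span of 0.3. A symbol on a pair of identifiers (7 cases) was taken from the first.

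Named were all members past 2-fold, the 3 largest rises and falls of classes with 6 or more members, every member of smaller classes, the 3 most abundant of each class, and other pathway genes past 2-fold, of which 1 is not reported here. HSPA6, DNAJB14, HSF1, HSF2, HSP90B1, SIL1 and HYOU1 were added after their values were seen. The members and lists were chosen with earlier results of these data known. Alternatives were other pseudocounts, a low-value filter, 4 scalings, other thresholds and the mean, and, chosen after seeing the data, removal of the GC trend and the sum of HSPA1A and HSPA1B. Python 3.11.15, numpy 2.4.6, pandas 2.3.3, statsmodels 0.14.6, Biopython 1.88 and matplotlib 3.10.9 were used, and the computations were tested on simulated data.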

Additional observations from a re-analysis of the deposited data

How the results depend on the processing

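Each condition has 1 library, so no paired analysis was possible because no samples could be paired, no library could be left out, and depth, which is unknown, gives no interval. The number of members higher by 2-fold or more was 7 and became 13 with a pseudocount of 0.1 FPKM and with none, 11 with 0.5 FPKM and on the TPM scale, 18 at 1.5-fold and 2 at 4-fold. The 7 stayed among the higher members under each pseudocount and scaling. With the GC trend removed 6 were higher, of which 5 were among the 7 (without HSPA13 and DNAJC3, with DNAJB5), and 4 lower, of which 3 were among the 4, beside 7.12% and 6.06% of all genes. Among genes at or above 1 FPKM in each library, 6 of 45 members were higher and 3 lower, since HSPB8 and HSPB3 were left out, beside 7.77% and 10.5% of 9139 genes. The genes gained under the pseudocounts lay under 1 FPKM in the untreated library. Over all genes the share higher went from 8.08% to 14.3% with 0.1 FPKM, 15.1% with no pseudocount, 10.7% with 0.5 FPKM and 11.5% on the TPM scale. The number lower, 4, became 2 with the upper quartile and with the total without the 20 most abundant genes, 6 on the TPM scale (with DNAJC5 and DNAJC12, beside 15.8% of all genes), and 0 at 4-fold. The HSP110 median of -0.10 log2 turned to 0.013 and 0.016 log2 with the upper quartile and with the total without the 20 most abundant genes. It was -0.17 log2 on the TPM scale and -0.42 log2 with the GC trend removed. The mitochondrial median of 0.033 log2 turned to -0.044 log2 on the TPM scale and to -0.16 log2 with the GC trend removed, an alternative chosen after seeing the data. The cause of these differences was not tested, apart from the thresholds, pseudocounts and scalings, which act by construction. Each scaling divides all values of a library by the same number. The median of all members was above 0 in every alternative run, from 0.054 to 0.29 log2, and their mean was 0.30 log2. Of 214 values of single genes past 2-fold under the alternatives, 201 were still past it in the same direction, and no sign among these 214 was reversed. Signs of genes nearer to no change did turn, among them HSPB1 with the GC trend removed and HSPA4 with the upper quartile. No scaling moved the median of all genes by more than 0.1 log2.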

Other observations

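A pair of readthrough genes, which join a member to its neighbour and were left out of the members, had rows of their own. HSPE1-MOB4 had 2.71 FPKM in the untreated and 6.51 FPKM in the bort library, and DNAJC25-GNG10 had 2.47 and 5.22 FPKM. Their transcripts overlap those of HSPE1 and DNAJC25, so the division of fragments between them is uncertain.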
